A study of Mus musculus with 11 samples.

Results

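The liver X receptors (LXRs) and the genes of cholesterol efflux were followed in whole mouse skin after depletion of regulatory T cells (Tregs). The 10 genes described were the receptors Nr1h3 and Nr1h2, the oxysterol enzyme Ch25h, the efflux transporters Abca1 and Abcg1, the lipid carriers Apoe and Pltp, the receptor-degrading ligase Mylip, and the lipid genes Srebf1 and Lpcat3. They were taken by symbol from a table of 49315 genes, and each was found in 1 row and passed the filter on low counts, which left 18375 genes. The group was chosen by its measured levels, because Apoe and Abca1 were higher than control in ΔLTreg and ΔTreg skin of these same mice. Comparisons of those depleted groups with control are therefore given as levels and differences without a test.

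Skin RNA was sequenced in bulk from 11 Foxp3-DTR mice, 1 library per mouse. These mice, on a C57BL/6J background, carry the diphtheria toxin (DT) receptor under the Foxp3 promoter, so the injected toxin acts on Foxp3-expressing cells beyond skin as well. The control group (labelled PBS, n = 2) received the PBS vehicle. The ΔETreg group (EarlyDT, n = 3) received DT on postnatal days 6 and 8 and was harvested on day 9. The ΔLTreg group (LateDT, n = 3) received DT on days 10 and 12 and was harvested on day 13. The ΔTreg group (FullDT, n = 3) received DT on days 6, 8, 10 and 12 and was also harvested on day 13. The stated dose was 30 ng per g of body weight. All groups, control included, carried the transgene, and both sexes were used without a record per mouse. The labels give no harvest day for the control mice, so age and depletion cannot be told apart in a comparison with control. The paper describes age-matched controls on days 9 and 13, so the 2 control mice may also differ from each other in age. All libraries bear the same batch label.

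LXRs are nuclear receptors that bind oxysterols, oxidised forms of cholesterol, and partner with a retinoid X receptor on DNA. When a cell holds more cholesterol than it needs, they are known to switch on genes that export it to lipoproteins, limit its uptake and adjust fatty acid synthesis. In skin they are known in keratinocytes and sebaceous glands, where they bear on barrier lipids, and in macrophages, where they bear on lipid clearance and inflammation.

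Total counts ranged from 23377571 to 34159435 per library. Skin was recognisable in every mouse, as 4 keratinocyte markers (Krt5, Krt14, Krt1 and Krt10) summed to between 7782 and 10110 CPM (counts per 1000000 counts of a library, scaled by the TMM method). Foxp3, which marks the targeted cells, was near the detection limit in whole skin, with 9 to 23 counts per library. Its level was 0.558 to 0.701 CPM in control, 0.348 to 0.526 in ΔETreg mice, 0.407 to 0.685 in ΔLTreg and 0.386 to 0.564 in ΔTreg, and it was not called in either tested comparison, so this mRNA gave no check of depletion at harvest. In ΔTreg skin, 11 macrophage markers summed to 654 to 851 CPM, against 231 to 288 in control, 166 to 252 in ΔETreg and 124 to 312 in ΔLTreg. One ΔLTreg mouse, replicate 3, stood apart, with the lowest macrophage sum (124 CPM), the lowest fibroblast sum (6200 CPM) and the highest skeletal muscle sum (4166 CPM) of all 11 libraries. The muscle sum was also high in ΔLTreg replicate 1 (3180 CPM), above every mouse outside that group (902 to 2025), and was 1306 in replicate 2. In bulk tissue, fewer cells of a type and less RNA per cell cannot be told apart.

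LXR and its partner recognise a direct repeat of the half-site AGGTCA with 4 bases between the copies. RefSeq promoter windows on GRCm38.p6, running from 250 bases before a start site to 50 after it, were matched for 9 of the 10 genes, 14 windows in all, and Abcg1 had no entry. With at most 2 mismatches in the 12 half-site bases, on either strand, the repeat lay in none of the 9, against 3.47% of 27025 genes with a window. At the looser limit of 3 mismatches, set after the first gave none, it lay in Abca1 and Srebf1, and in 24.49% of all genes, so that match alone is common. The pair of matches shared 14 of 16 bases. Written as GGGTTACTNNCGGTCA, the shared letters were found in 3 of the 27025 genes (0.0111%): Abca1, Srebf1 and Fasn, the last a fatty acid synthase and a textbook LXR target. Since the letters were read from the first 2 genes, their own presence follows from the search. The 3 matches are shown because they are the only windows with these letters. Capitals mark the shared letters, read 5′ to 3′ on the chromosome's plus strand, opposite to the genes.
Abca1: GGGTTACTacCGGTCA
Fasn: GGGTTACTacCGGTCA
Srebf1: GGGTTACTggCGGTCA

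The Abca1 match lies at chr4:53159947-53159962, 67 bases before the start site, and the Fasn match at chr11:120824757-120824772, 225 bases before it. The Srebf1 match lies at chr11:60210638-60210653, 182 bases before an internal start site, within the span of the longer transcripts. To show their setting, 120 bases follow on the gene's own strand, with the match in capitals. They cover chr4:53159926-53160045 for Abca1 and chr11:60210572-60210691 for Srebf1.
Abca1: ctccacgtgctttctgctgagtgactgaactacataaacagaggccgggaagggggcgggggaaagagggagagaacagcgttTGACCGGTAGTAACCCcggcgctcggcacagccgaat
Srebf1: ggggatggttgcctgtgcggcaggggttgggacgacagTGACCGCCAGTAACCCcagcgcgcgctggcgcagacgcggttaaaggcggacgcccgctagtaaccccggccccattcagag

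Ch25h, the member with the widest range, held the palindrome TGACGTCA, the cyclic AMP response element, 61 bases before its start site at chr19:34475202-34475209. That motif was in 2.03% of all genes and in no other member's window. The interferon-type motif GAAANNGAAA, searched on both strands, was in none of the 9 and in 3.99% of all genes. The stretch of chr19:34475179-34475298 is printed on the gene's strand with the palindrome in capitals. A match is a description of letters and not evidence of binding.
Ch25h: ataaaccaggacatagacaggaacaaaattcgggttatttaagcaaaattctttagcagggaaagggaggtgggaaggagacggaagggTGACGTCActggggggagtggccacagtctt

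The groups harvested on the same day were ΔTreg and ΔLTreg. In ΔTreg against ΔLTreg skin, Ch25h, Nr1h2, Abcg1 and Abca1 rose, by between 1.15-fold and 22.3-fold. The remaining 6 did not pass the test. Against 10.7% of the 18375 genes called higher in this comparison, 4 of 10 members were called higher. None was called lower, where 6.11% of all genes were. The test was edgeR's quasi-likelihood test on all 11 libraries, with p-values adjusted over the 18375 genes by the Benjamini-Hochberg method. At an unadjusted p under 0.05 there were 5 members, the additional one being Apoe, which was lower, and DESeq2's Wald test called the same 5. The median log2 fold change of the 10 genes was 0.18, against -0.004 for all genes. The ΔTreg mice had 4 doses starting on day 6 and the ΔLTreg mice 2 doses starting on day 10, and dose number and start of depletion cannot be told apart. Apoe and Abca1 were chosen as high in both groups. The difference between these groups was not used in the choice, but the same mice were, so neither gene is an independent result here. With Abca1 set aside, the members called higher were Ch25h, Nr1h2 and Abcg1.

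**Figure D1:**
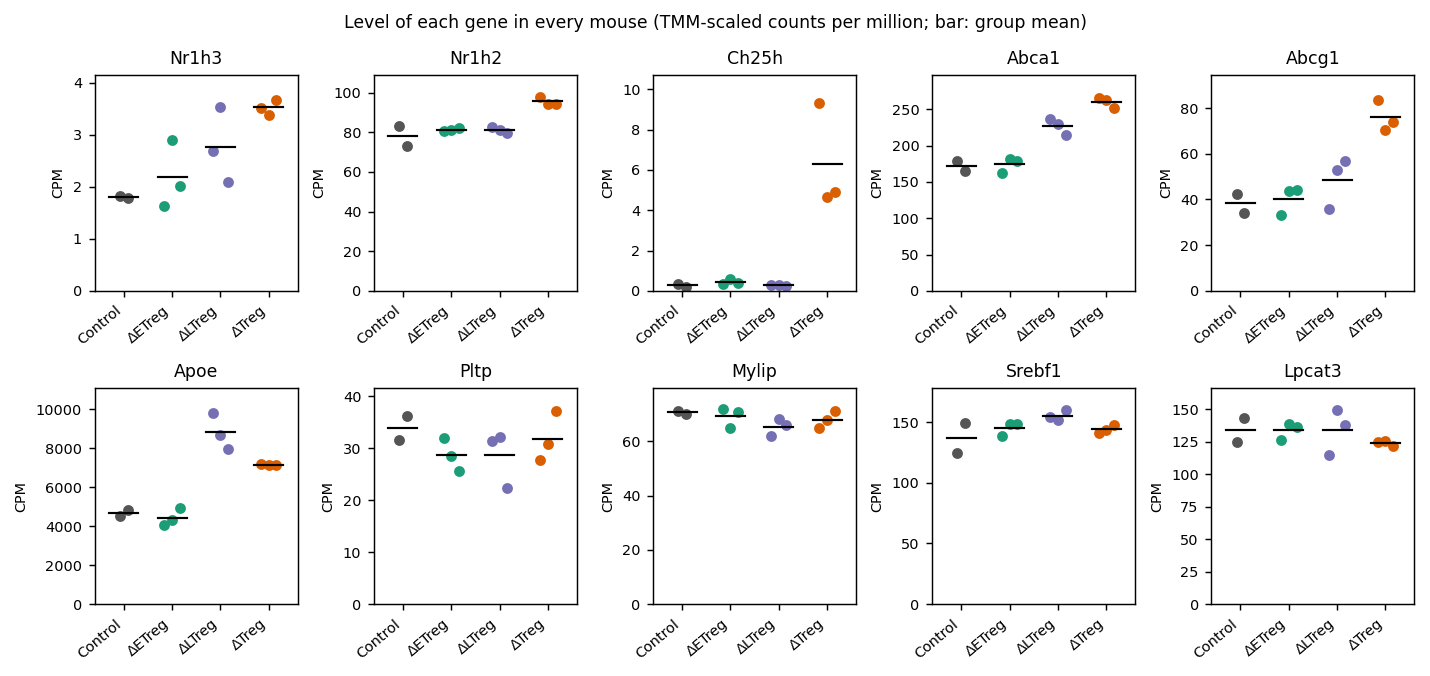
Level of each of the 10 genes in every mouse, in TMM-scaled CPM on a linear axis from 0, with 1 point per mouse and a bar at the group mean. Ch25h lies between 4.66 and 9.31 CPM in the 3 ΔTreg mice and below 0.6 in the other 8, Apoe is highest in ΔLTreg, and Mylip, Lpcat3 and Pltp overlap between ΔTreg and ΔLTreg.

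Nr1h3 encodes LXRα (ENSMUSG00000002108, chromosome 2, 91184061 to 91202834, minus strand, GRCm38), and Nr1h2 encodes LXRβ (ENSMUSG00000060601, chromosome 7, 44549616 to 44553951, minus strand). Nr1h3 was 1.82 and 1.79 CPM in control, 1.64, 2.89 and 2.01 in ΔETreg mice, 2.68, 3.53 and 2.10 in ΔLTreg, and 3.52, 3.39 and 3.68 in ΔTreg. The ΔTreg mice lay close together and all above both control mice, while ΔLTreg replicate 2 reached the ΔTreg range. These levels rest on 45 to 119 counts per library. Against ΔLTreg, the log2 fold change of Nr1h3 in ΔTreg was 0.36 ± 0.22 (SE, n = 3 against 3; edgeR adjusted p = 0.298), with a 95% interval of -0.12 to 0.83.

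Nr1h2 was the more abundant receptor in every mouse. It measured 83.1 and 72.8 CPM in control, 80.9, 81.1 and 82.1 in ΔETreg mice, 82.5, 81.3 and 79.6 in ΔLTreg, and 97.9, 94.3 and 94.3 in ΔTreg. All 3 ΔTreg mice were above the other 8. The rise over ΔLTreg was small, 1.18-fold (95% interval 1.09 to 1.27), and larger than the spread between mice (log2 fold change 0.24 ± 0.05, edgeR adjusted p = 0.0074). It was called in all 17 alternative settings. Per kilobase of exon, which allows genes to be compared, Nr1h2 stood at 28.5 CPM in ΔTreg and Nr1h3 at 1.40.

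Ch25h, a single-exon gene for cholesterol 25-hydroxylase, which makes an oxysterol ligand of LXR and is known to be induced by interferon, gave the largest difference. It lies on chromosome 19 at 34473778 to 34475164 (ENSMUSG00000050370, minus strand). Raw counts were 10 and 5 in control, 10, 18 and 9 in ΔETreg mice, 10, 8 and 7 in ΔLTreg, and 217, 157 and 158 in ΔTreg. As levels these were 0.350 and 0.199 CPM, then 0.348, 0.592 and 0.386, then 0.298, 0.314 and 0.219, and in ΔTreg 9.31, 4.66 and 4.89 CPM. The gene was near the floor in 8 mice and well above it in the remaining 3, with replicate 1 the highest. ΔTreg exceeded ΔLTreg 22.3-fold (95% interval 12.9 to 38.5; log2 fold change 4.48 ± 0.36, edgeR adjusted p = 1.54e-05), and without ΔTreg replicate 1 the log2 fold change was 4.09. An antisense gene, Gm26902, shares 159 exon bases with Ch25h and had 6 to 15 counts in every group, and whether counting used strand is not given in the sources used here.

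Interferon and immune markers, like Ch25h, were highest in ΔTreg skin. The 2 interferon markers Irf1 and Irf7 summed to 23.9 to 36.8 CPM in control, 28.6 to 36.3 in ΔETreg mice, 36.6 to 75.9 in ΔLTreg and 158.2 to 225.9 in ΔTreg, and both were called higher in ΔTreg than in ΔLTreg. So were 10 of 11 macrophage markers and 7 of 7 T cell markers (CD3 and CD8 chains, Cd4 and Lck), where 10.7% of all genes were. The T cell sum was 53.1 to 65.9 CPM in ΔTreg and 15.6 to 18.8 in ΔLTreg. Cd8a and Cd8b1 had 0 to 3 counts outside ΔTreg. They passed the filter only through the ΔTreg mice, so their calls add no support. No macrophage marker was at 0 in any library. The part of these cells in the levels of Ch25h, Nr1h2, Abcg1 or Abca1 was not tested.

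**Figure D2:**
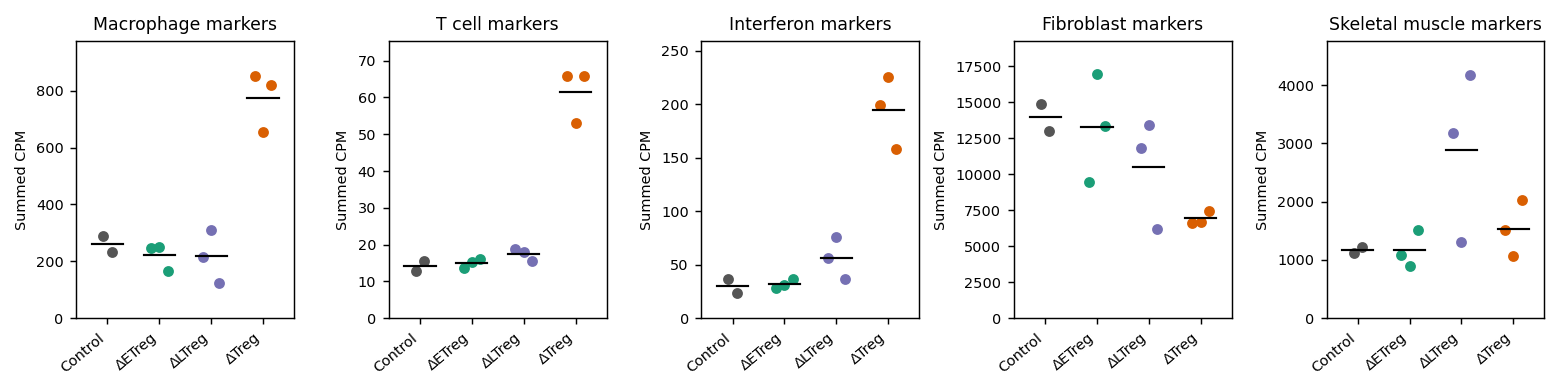
Summed level of 5 marker lists in every mouse, in TMM-scaled CPM on linear axes from 0, with 1 point per mouse and a bar at the group mean. Macrophage, T cell and interferon sums in the 3 ΔTreg mice lie above those of the other 8, while the fibroblast sum in ΔTreg (6649 to 7443 CPM) lies below both control mice (13040 and 14910).

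Abca1 and Abcg1 encode the membrane pumps that load cellular cholesterol onto lipid-poor apolipoproteins and onto high-density lipoprotein. Abca1 (ENSMUSG00000015243, chromosome 4, 53030787 to 53159895, minus strand) was 178 and 164 CPM in control, 162, 181 and 179 in ΔETreg mice, 236, 230 and 214 in ΔLTreg, and 266, 263 and 252 in ΔTreg. The groups formed steps, with control and ΔETreg overlapping, every ΔLTreg mouse above them and every ΔTreg mouse above ΔLTreg. The step from ΔLTreg to ΔTreg was 1.15-fold (log2 fold change 0.20 ± 0.06, edgeR adjusted p = 0.0467). That call sat at the threshold and held in 7 of 17 alternative settings. It was lost with library size alone (adjusted p = 0.0885), without the filter (0.0503) and in a fit of the 2 groups only (0.0551). It was lost as well on leaving out ΔETreg replicate 2 (0.0582) or 3 (0.0654), ΔLTreg replicate 2 (0.0854) or 3 (0.113), or ΔTreg replicate 1 (0.157), 2 (0.127) or 3 (0.0703).

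Abcg1 (ENSMUSG00000024030, chromosome 17, 31057675 to 31117988, plus strand) was 42.3 and 34.2 CPM in control, 33.4, 43.5 and 44.2 in ΔETreg mice, 36.0, 53.0 and 56.7 in ΔLTreg, and 83.6, 70.4 and 74.0 in ΔTreg. The ΔLTreg mice were spread, replicate 1 lying within the control range, and no ΔLTreg mouse reached a ΔTreg mouse. ΔTreg was 1.56-fold higher than ΔLTreg (95% interval 1.22 to 2.00; log2 fold change 0.65 ± 0.16, edgeR adjusted p = 0.0192). Without ΔTreg replicate 1 the adjusted p was 0.0807 and the log2 fold change 0.57, the only one of 17 settings to lose the call.

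Apoe (ENSMUSG00000002985, chromosome 7, 19696109 to 19699188, minus strand) encodes apolipoprotein E, the carrier that accepts exported cholesterol. It was by far the most abundant member, with 115368 to 329210 counts per library. Levels were 4547 and 4846 CPM in control, 4059, 4299 and 4943 in ΔETreg mice, 9811, 8679 and 7978 in ΔLTreg, and 7178, 7149 and 7131 in ΔTreg. Apoe thus took 0.79% to 1.02% of all counts in ΔLTreg skin, 0.704% to 0.706% in ΔTreg and 0.428% to 0.493% in the other 5 mice. All ΔTreg mice were below all ΔLTreg mice, the reverse of the order for Abca1 and Abcg1. The difference missed the threshold (log2 fold change -0.30 ± 0.10, edgeR adjusted p = 0.068), with a 95% interval of -0.53 to -0.08. It passed in 4 of 17 settings, namely DESeq2 (adjusted p = 0.00662), no filter (0.00206), a mean count of at least 50 (0.0444) and without ΔLTreg replicate 3 (0.0325).

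Apoc1, Apoe's neighbour in the same apolipoprotein cluster, did not show Apoe's profile. It was 32.7 and 47.3 CPM in control, 43.1, 36.1 and 35.9 in ΔETreg mice, 43.8, 49.4 and 39.7 in ΔLTreg, and 42.0, 43.8 and 38.8 in ΔTreg, and all groups overlapped. Apoc1 belongs to the list of other LXR targets and was singled out after its values were seen. Pltp (ENSMUSG00000017754, chromosome 2, 164839518 to 164857711, minus strand) encodes phospholipid transfer protein, which moves lipid between lipoproteins. Its levels were 31.7 and 36.2 CPM in control, 31.9, 28.6 and 25.5 in ΔETreg mice, 31.5, 32.2 and 22.3 in ΔLTreg, and 27.7, 30.8 and 37.1 in ΔTreg. The log2 fold change of Pltp in ΔTreg against ΔLTreg was 0.16 ± 0.15 (edgeR adjusted p = 0.525), with a 95% interval of -0.17 to 0.48. Pltp shares 495 exon bases with Ctsa on the opposite strand, a gene with 4357 to 7905 counts.

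Mylip, also called Idol, is the ubiquitin ligase that sends the low-density lipoprotein receptor for degradation (ENSMUSG00000038175, chromosome 13, 45389742 to 45412022, plus strand). Levels were 71.2 and 70.0 CPM in control, 71.9, 65.0 and 70.8 in ΔETreg mice, 61.8, 68.1 and 65.9 in ΔLTreg, and 64.8, 67.6 and 71.2 in ΔTreg. The 11 mice spanned a narrow range. Its log2 fold change in ΔTreg against ΔLTreg was 0.06 ± 0.06 (edgeR adjusted p = 0.538), and the 95% interval of the fold, 0.956 to 1.13, bounds the difference closely.

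Srebf1 (ENSMUSG00000020538, chromosome 11, 60199089 to 60222581, minus strand) encodes SREBP1, which drives fatty acid synthesis. It measured 124 and 149 CPM in control, 139, 149 and 149 in ΔETreg mice, 154, 152 and 160 in ΔLTreg, and 141, 143 and 148 in ΔTreg. All 3 ΔTreg mice lay below all ΔLTreg mice, by an amount within the error of the test (log2 fold change -0.11 ± 0.06, edgeR adjusted p = 0.279). Srebf1 shares 109 exon bases with Rai1 on the opposite strand.

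Lpcat3 (ENSMUSG00000004270, chromosome 6, 124663027 to 124704418, plus strand) remodels phospholipids by adding polyunsaturated chains. It was 125 and 144 CPM in control, 127, 139 and 137 in ΔETreg mice, 115, 150 and 138 in ΔLTreg, and 125, 126 and 122 in ΔTreg. The ΔTreg mice lay inside the ΔLTreg range (log2 fold change -0.12 ± 0.09, edgeR adjusted p = 0.416). Without ΔLTreg replicate 1 the difference was -0.22 and was called (adjusted p = 0.0463). Lpcat3 shares 334 exon bases with Emg1 on the opposite strand.

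Ordered by level per kilobase of exon, Apoe led every group, at 2197 ± 99.0 CPM per kilobase in control (SD, n = 2) and 4127 ± 433 in ΔLTreg (n = 3). Lpcat3 followed at 41.1 ± 4.06 in control, then Srebf1 at 24.3 ± 3.11, Nr1h2 at 23.2 ± 2.16 and Mylip at 21.8 ± 0.276, 3 neighbours that lay within their spread of one another. Abca1 came next at 16.5 ± 0.94, then Pltp at 13.2 ± 1.25, Abcg1 at 5.24 ± 0.79, Nr1h3 at 0.718 ± 0.00799 and Ch25h at 0.198 ± 0.077. In ΔTreg skin the order differed. Nr1h2 (28.5 ± 0.62) stood above Srebf1 (25.6 ± 0.60) and Abca1 (25.1 ± 0.70), the latter 2 within their spread, and Ch25h (4.53 ± 1.89) stood above Nr1h3 (1.40 ± 0.06).

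Against control, ΔLTreg and ΔTreg skin are described only, since these comparisons chose the genes. Every ΔLTreg mouse was above both control mice for 4 of 10 genes, namely Apoe, Abca1, Nr1h3 and Srebf1, where 15% of all genes tested were. Every ΔLTreg mouse was below both for Mylip alone, where 17.2% of all genes were. The log2 fold changes in ΔLTreg were 0.91 ± 0.12 for Apoe, 0.60 ± 0.26 for Nr1h3, 0.40 ± 0.07 for Abca1, 0.34 ± 0.18 for Abcg1 and 0.18 ± 0.07 for Srebf1 (SE, n = 3 against 2). Ch25h stood at -0.02 ± 0.60.

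In ΔTreg, all 3 mice were above both control mice for 6 of 10 genes, where 26.8% of all genes were, and below both for none, where 25.8% were. The 6 were Ch25h (log2 fold change 4.46 ± 0.43), Abcg1 (0.99 ± 0.19), Nr1h3 (0.96 ± 0.26), Apoe (0.61 ± 0.12), Abca1 (0.60 ± 0.07) and Nr1h2 (0.29 ± 0.06). Srebf1, Mylip, Pltp and Lpcat3 overlapped control, at 0.08 ± 0.07, -0.06 ± 0.06, -0.09 ± 0.16 and -0.12 ± 0.10. The same 2 control mice enter both sets of differences. Apoe and Abca1, by which the group was chosen, are in the count of genes above control for ΔLTreg and for ΔTreg. The median log2 fold change of the 10 genes was 0.12 in ΔLTreg and 0.45 in ΔTreg, with medians over all genes of 0.004 and -0.006.

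**Figure D3:**
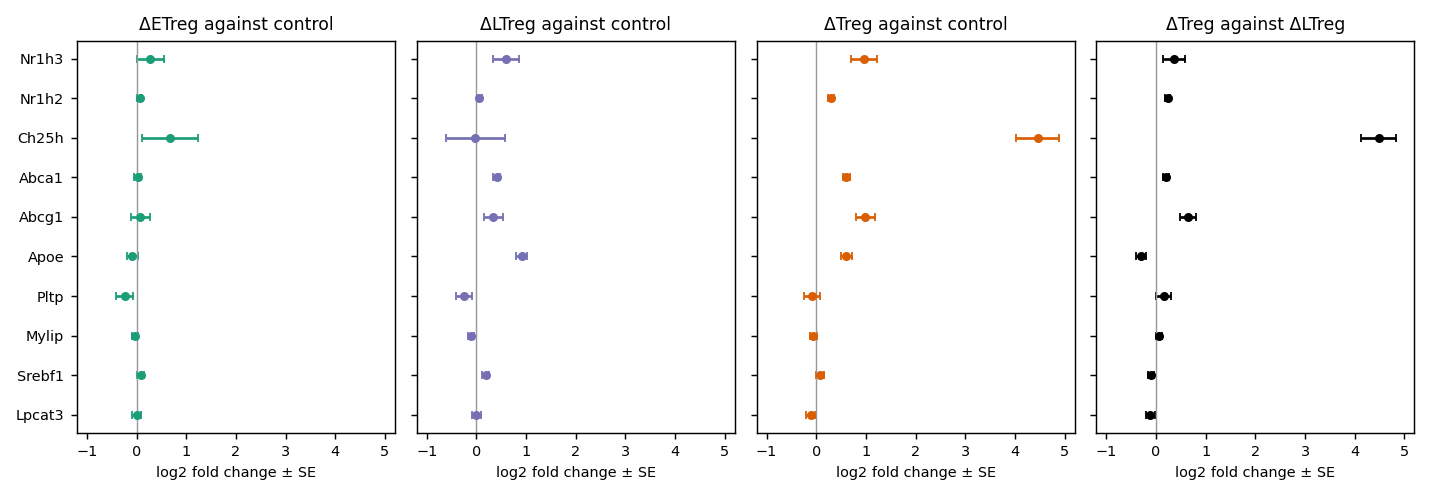
Log2 fold change of each gene with its standard error, in 4 panels for ΔETreg, ΔLTreg and ΔTreg against control and for ΔTreg against ΔLTreg, on a shared axis with a line at 0. Ch25h is far to the right in both ΔTreg panels (4.46 and 4.48), Apoe lies to the right in ΔLTreg (0.91) and left of 0 in ΔTreg against ΔLTreg (-0.30), and the ΔETreg panel holds no gene past the test.

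Early depletion gave no detectable difference in any of the 10 genes. In ΔETreg against control, edgeR called 0 of 10 after adjustment, 0 of 10 had an unadjusted p under 0.05, DESeq2 called 0, and the mice of both groups overlapped for every gene. Over all genes the percentage called was 0.00544% higher, which is 1 gene, and 0% lower, and 872 genes (4.75%) had an unadjusted p under 0.05. Adjusted p was 1 for each member. The control mice are those used above for ΔLTreg and ΔTreg. The median log2 fold change was 0.04 for the 10 genes and -0.01 for all genes. The fold was 1.02 for Abca1 (95% interval 0.917 to 1.13), 0.944 for Apoe (0.793 to 1.12), 1.04 for Nr1h2 (0.959 to 1.14), 0.981 for Mylip (0.892 to 1.08), 1.06 for Srebf1 (0.953 to 1.18) and 0.999 for Lpcat3 (0.860 to 1.16). Wider were Abcg1 at 1.05 (0.794 to 1.40), Pltp at 0.846 (0.657 to 1.09) and Nr1h3 at 1.21 (0.806 to 1.82). Ch25h, at 5 to 18 counts per mouse, was the least bounded at 1.59 (0.679 to 3.74).

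The genes around these 10 were read from 5 lists with 55 entries, of which 51 passed the filter. Abcg5, Abcg8 and Apoa1 had too few counts and Apoc2 had none. In ΔTreg against ΔLTreg skin 8 of 51 were called higher and 4 lower, where 10.7% of all genes were higher and 6.11% lower, so both counts were near the background. The 8 include Cd5l, which passed the filter only through the ΔTreg mice. The median log2 fold change was 0.04, against -0.004 for all genes. In ΔETreg against control, edgeR called 0 of 51, 2 had an unadjusted p under 0.05 and DESeq2 called 0. The gene with the smallest p in each list there was Rxra (log2 fold change -0.04), Hsd3b7 (0.49), Smpdl3a (-0.20), Nceh1 (-0.25) and Mbtps2 (-0.09).

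Of 5 enzymes tested that make or consume LXR ligands, Cyp7b1 and Cyp27a1 were called higher in ΔTreg than in ΔLTreg and the other 3 were not called. The share of all genes called higher there was 10.7%. Cyp7b1, which hydroxylates the product of Ch25h, was 0.525 and 0.319 CPM in control, 0.314, 0.789 and 0.343 in ΔETreg mice, 0.536, 0.627 and 0.658 in ΔLTreg, and 2.87, 1.54 and 2.04 in ΔTreg, a rise of 3.49-fold over ΔLTreg (log2 fold change 1.80 ± 0.33, edgeR adjusted p = 0.00344). It too was low in 8 mice and higher in 3, on 8 to 67 counts. Cyp27a1, the mitochondrial sterol 27-hydroxylase, was 5.78 and 4.74 CPM in control, 5.33 to 6.43 in ΔETreg mice, 7.45 to 10.5 in ΔLTreg and 12.5 to 13.4 in ΔTreg. It rose by 0.46 ± 0.13 on the log2 scale over ΔLTreg (adjusted p = 0.0379), and the call was lost in 7 of 17 settings. These were library size alone (adjusted p = 0.0539), the 2 groups only (0.069), and leaving out ΔETreg replicate 2 (0.0549), ΔLTreg replicate 3 (0.0735) or ΔTreg replicate 1 (0.0968), 2 (0.081) or 3 (0.109).

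Cyp46a1, a cholesterol hydroxylase best known from neurons, came next by p, at 1.79 and 0.637 CPM in control, 1.33 to 1.48 in ΔETreg mice, 1.22 ± 0.12 (SD, n = 3) in ΔLTreg and 1.37 to 1.49 in ΔTreg. The control pair spanned all the other mice. The difference of ΔTreg from ΔLTreg was smaller than its standard error (log2 fold change 0.24 ± 0.28, edgeR adjusted p = 0.614).

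Of 14 other LXR target genes tested, 2 were higher and 2 lower, with 10.7% and 6.11% of all genes called in those directions. Apod, an apolipoprotein of the lipocalin family, was 36.3 and 24.7 CPM in control, 24.5 to 27.1 in ΔETreg mice, 29.6 to 40.3 in ΔLTreg and 60.5 to 68.0 in ΔTreg, a 1.88-fold rise over ΔLTreg (adjusted p = 0.000876). Cd5l, a macrophage survival factor, rested on 1 to 22 counts per mouse, and on 1 to 7 outside ΔTreg. It passed the filter only through the ΔTreg mice, where it was high, so its call adds no support. It was called higher (log2 fold change 1.91 ± 0.52, adjusted p = 0.0274), a call lost with DESeq2 (0.0623) and without ΔLTreg replicate 2 (0.0559) or 3 (0.0767) or ΔTreg replicate 1 (0.0702) or 3 (0.0974).

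The pair called lower, Fasn and Scd1, make fatty acids. Fasn, the third holder of the shared promoter letters, was 500.1 and 509 CPM in control, 513, 592 and 584 in ΔETreg mice, 438, 596 and 607 in ΔLTreg, and 430, 414 and 395 in ΔTreg. The 3 ΔTreg mice were the lowest of all 11, with ΔLTreg replicate 1 next. Fasn fell by 0.41 on the log2 scale (SE 0.11, edgeR adjusted p = 0.0285). This call was lost in the fit of 2 groups only (0.0711) and on leaving out ΔLTreg replicate 2 (0.0882) or 3 (0.0772) or any one ΔTreg mouse (0.0617, 0.0812 and 0.0966). Scd1, a stearoyl-CoA desaturase named after its value was seen, also fell, by 0.50 (adjusted p = 0.0327), a call lost for the 2 groups only (0.0681) and without ΔLTreg replicate 2 (0.107) or ΔTreg replicate 1 (0.0635) or 3 (0.114). Of the 3 genes that carry the letters, then, Abca1 was higher, Fasn lower and Srebf1 not called in ΔTreg against ΔLTreg. Sebocyte markers, from a lipogenic cell type of skin, summed to 99.3 to 120 CPM in ΔTreg and 153 to 230 in ΔLTreg. Adipocyte markers summed to 280 to 334 CPM in ΔTreg and 366 to 474 in ΔLTreg. Scd3 held most of the sebocyte sum (mean 61.3 CPM in ΔTreg, 134.7 in ΔLTreg), and Fabp4 most of the adipocyte sum (298.8 and 373.4). The other sebocyte markers differed less than Scd3, down to Mc5r (14.6 and 16.1). The other adipocyte markers differed more than Fabp4, up to Adipoq (2.72 and 12.7). Called lower were 2 of 4 sebocyte and 1 of 6 adipocyte markers, where 6.11% of all genes were. The part of sebocytes and adipocytes in the Fasn and Scd1 levels was not tested.

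Among 15 genes of cholesterol uptake, storage and trafficking, 3 were higher and 2 lower, beside the same 10.7% and 6.11% over all genes. Msr1, a macrophage scavenger receptor for modified lipoproteins, was 3.33 and 1.59 CPM in control, 1.67, 2.24 and 0.986 in ΔETreg mice, 2.21, 4.16 and 0.689 in ΔLTreg, and 14.4, 10.6 and 11.8 in ΔTreg. Its order among the ΔLTreg mice was that of their macrophage marker sums (216, 312 and 124 CPM). Among the members, Nr1h3, Ch25h and Pltp had the same order, and the rest, Abca1 and Abcg1 included, had other orders. An order over 3 mice does not assign a gene to a cell type. The part of macrophages in the Msr1 level was not tested. Msr1 was 5.31-fold higher in ΔTreg than in ΔLTreg (log2 fold change 2.41, adjusted p = 0.00428), and without ΔLTreg replicate 2 the log2 fold change was 3.06. Npc2, the lysosomal protein that hands cholesterol to the membrane, was 116 and 133 CPM in control, 117, 111 and 103 in ΔETreg mice, 129, 133 and 103 in ΔLTreg, and 171, 167 and 175 in ΔTreg, 1.41-fold above ΔLTreg (adjusted p = 0.00361).

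Soat1, which esterifies cholesterol for storage, was 132 and 159 CPM in control, 152, 162 and 153 in ΔETreg mice, 154, 182 and 151 in ΔLTreg, and 116, 125 and 112 in ΔTreg. It fell by 0.46 on the log2 scale from ΔLTreg to ΔTreg (SE 0.09, edgeR adjusted p = 0.00367), and all 3 ΔTreg mice were below the other 8. The remaining pair, named after their values were seen, were Lrp1, an endocytic receptor for Apoe-bearing particles, and Scarb1, the high-density lipoprotein receptor. Lrp1 was 539 and 489 CPM in control, 475, 599 and 466 in ΔETreg mice, 363, 397 and 317 in ΔLTreg and 548, 496 and 553 in ΔTreg, so that ΔLTreg was the group that stood apart, and the log2 fold change of ΔTreg over ΔLTreg was 0.57 ± 0.11 (adjusted p = 0.00444). Scarb1 was 109 and 110 CPM in control, 107 to 117 in ΔETreg mice, 131 to 136 in ΔLTreg and 114 to 117 in ΔTreg, where it fell by 0.21 (adjusted p = 0.00825).

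Of 10 LXR partners and cofactors, Ncoa3, a coactivator, was the only one called, at 77.8 to 83.5 CPM in ΔLTreg and 90.2 to 95.3 in ΔTreg (log2 fold change 0.20 ± 0.05, edgeR adjusted p = 0.0142). With 10.7% of all genes called higher and 6.11% lower, 1 of 10 is near the background. The Ncoa3 call was lost without ΔTreg replicate 1 (0.0589) or 3 (0.0593). Next by p came the corepressor Nrip1 (-0.18 ± 0.06, adjusted p = 0.0861) and the acetyltransferase Ep300 (0.11 ± 0.05, adjusted p = 0.167). Of 7 regulators of SREBP2, the sensor arm for low cholesterol, edgeR called 0, 0 had an unadjusted p under 0.05 and DESeq2 called 0. The smallest p-values in that list belonged to Insig2 (-0.16 ± 0.08, adjusted p = 0.184), Mbtps1 (-0.08 ± 0.05, 0.262) and Stard4 (-0.09 ± 0.08, 0.492), each with overlapping mice.

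**Figure D4:**
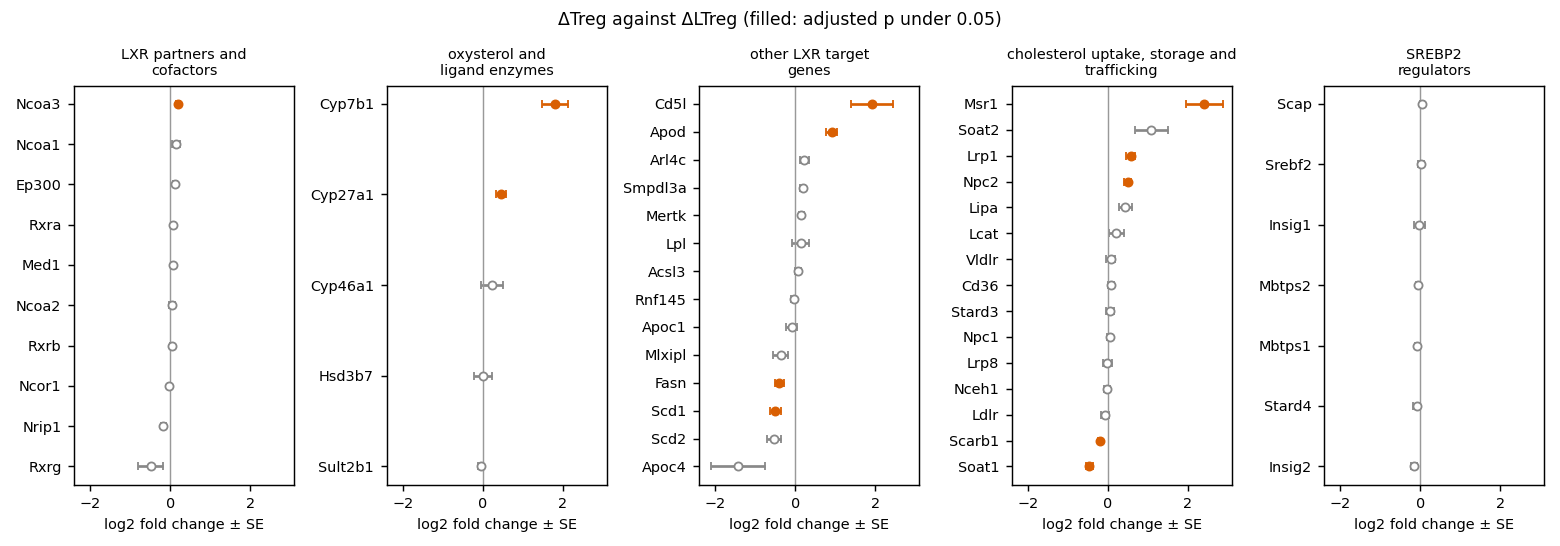
Log2 fold change with standard error for the 51 tested genes of 5 related lists, ΔTreg against ΔLTreg, 1 panel per list and genes sorted by value, with filled points for an adjusted p under 0.05. The 12 filled points fall on both sides of 0, from Msr1 (2.41) to Scd1 (-0.50), and the SREBP2 panel holds none.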

How the data were processed

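Whole skin of 11 Foxp3-DTR mice was analysed, grouped by the treatment label. Per the labels and the study's methods, the authors took skin biopsies, sequenced read pairs, trimmed them with Trimmomatic 0.36, mapped to GRCm38 with STAR 2.5.2b and counted reads unique to exons with featureCounts (Subread 1.5.2). The authors deposited these raw counts per gene. The annotation release and strand setting are not given in the sources used here, nor whether polyadenylated RNA was selected or ribosomal RNA removed. Gene positions and exon lengths are from GENCODE M21 on GRCm38. Promoters are from RefSeq.

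Counts were filtered with filterByExpr by group, scaled by TMM and fitted in edgeR 4.0.16 (R 4.3.3), with 1 model over 11 libraries and a mean per group. Standard errors were obtained by dividing a log2 fold change by the square root of its F statistic. Adjusted p under 0.05 was the threshold. Alternatives were DESeq2 1.42.0, other scalings and filters, a fit of the 2 groups compared, and each mouse left out. The test was checked on simulated counts. With 2 or 3 mice per group, p-values rest on the model's assumptions. Replicates of a group differed by more than counting error (median chi-square 1.01 to 3.52 per gene, where counting error gives 0.455).

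The members and lists were chosen with earlier results of these data known. Named genes were all members and, of each of 5 related lists, the 3 with the smallest p in ΔTreg against ΔLTreg and the 1 in ΔETreg against control. Itgam stood in 2 rows and was left out of the macrophage markers. Some genes of the lists are not reported here and were left out of their counts and sums.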

Additional observations from a re-analysis of the deposited data

How the results depend on the processing

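The count of members called in ΔTreg against ΔLTreg was 4, ranged from 3 to 5 over 6 other analyses and from 2 to 5 with 1 mouse left out. It was 2 without ΔTreg replicate 1, which left Ch25h and Nr1h2. Both of these were called in all 17 settings, Abcg1 in 16, Abca1 in 7, Apoe in 4 and Lpcat3 in 1. The count of related genes called was 12, ranged from 10 to 15 over the other analyses and from 7 to 14 with 1 mouse left out, and was 7 without ΔTreg replicate 1 and without ΔTreg replicate 3. In ΔETreg against control, 0 members and 0 related genes were called in every setting. Log2 fold changes near 0 in that comparison changed sign. With library size only, Mylip was 0.009 and Lpcat3 0.032. Lpcat3 was 0.006 without the filter, 0.013 at a mean count of at least 50 and 0.008 with the 2 groups only. With 1 mouse left out, the range was -0.039 to 0.223 for Srebf1, -0.031 to 0.159 for Nr1h2, -0.033 to 0.083 for Abca1, -0.071 to 0.238 for Abcg1, -0.1 to 0.102 for Lpcat3 and -0.052 to 0.016 for Mylip. The cause was not tested. A control left out leaves 1 control mouse, which is assumed to vary like the other groups. The counts behind Ch25h (5 to 18 outside ΔTreg) and Nr1h3 (45 to 119) limit their precision. No paired analysis was possible because the labels give the mice no numbers shared between groups.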
